A study of Arabidopsis thaliana with 15 samples.

Results

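A set of 46 genes was brightest in germinated Arabidopsis thaliana seeds after 24 h in abscisic acid (ABA), a plant hormone that promotes embryo maturation and responses to drought. They were chosen by their measured values from the 27981 loci on the arrays, with 1 probe set kept per locus. The mean log2 signal of the 3 arrays at 24 h had to be at least 6 and at least 1 above the mean at 0, 12 and 72 h, and at least 1 above the mean of replicates 1 and 3 at 2 h. The smallest of these differences is called the margin below. Since the margin chose the genes, the values at 24 h are given as a description, with no test.

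All samples were whole seeds of accession Columbia. After 72 h of cold at 4 °C they germinated at 22 °C under continuous white light. Once the radicle had emerged they were moved into darkness at 20 °C on paper wetted with 10 µM ABA. The 5 groups were 0, 2, 12, 24 and 72 h of that incubation, with 3 biological replicates each, every one a pool of seeds from at least a pair of plants. The series follows the return of desiccation tolerance under ABA, and that tolerance is not measured by any value used here. Seeds incubated without ABA were not analysed here, so ABA, time, darkness and the change of temperature cannot be told apart.

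The array signals are log2 values made with RMA, a method that removes background, draws the arrays toward the same distribution and summarises the probes of each probe set. They carry no detection call. Over all loci and arrays the lower quartile was 3.20, the median 5.21 and the upper quartile 7.04, so a value near or under 3.20 is read only as dim. Levels of different probe sets are not set against each other. In whole seeds, fewer cells of a type and less RNA per cell cannot be told apart.

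One array stood apart, and it bears on nearly every result. Replicate 2 at 2 h correlated with the other 2 h arrays at 0.890 and 0.901 over all loci, and all other pairs of replicates lay at 0.986 to 0.995. The interquartile range of its values was narrow, 2.89, and that of the other arrays 3.73 to 4.12. The selection did not use it. Replicate numbers below are those of the labels.

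As background, camalexin is the main phytoalexin of Arabidopsis, an antimicrobial indole compound made from tryptophan through indole-3-acetaldoxime. That aldoxime is also the branch point to indole glucosinolates, which stand in many tissues as preformed defences. Storage proteins, oleosins and late embryogenesis abundant proteins belong to the maturation programme of the embryo, which ABA promotes and which is switched off at germination. Glutathione transferases join glutathione to reactive or foreign compounds, and one of the steps to camalexin is such a conjugation.

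By symbol and textbook role, 4 members were placed under camalexin and indole metabolism, 4 under glutathione transferases and 8 under seed maturation. The remaining 30 were left under other or no annotated roles. A locus without a symbol may still belong to a pathway named here, such as AT1G26380, so these counts are of genes placed. These kinds were set up after the values had been seen. Of the 46, 27 had a symbol in the gene table and 19 were known by locus alone. Margins ran from 1.03 to 3.43 with a median of 1.42, and 24 h means ran from 6.08 to 11.27. The margin made it likely in advance that the 24 h arrays stood clear of the others. The count that follows only describes the choice, and no share of all loci was taken. In 45 of the 46 all 3 arrays at 24 h were above all 11 other arrays used in the choice. The exception was the albumin gene SESA5, whose 24 h replicate 1 read 7.61 while its 12 h replicate 1 read 8.01.

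**Figure D1:**
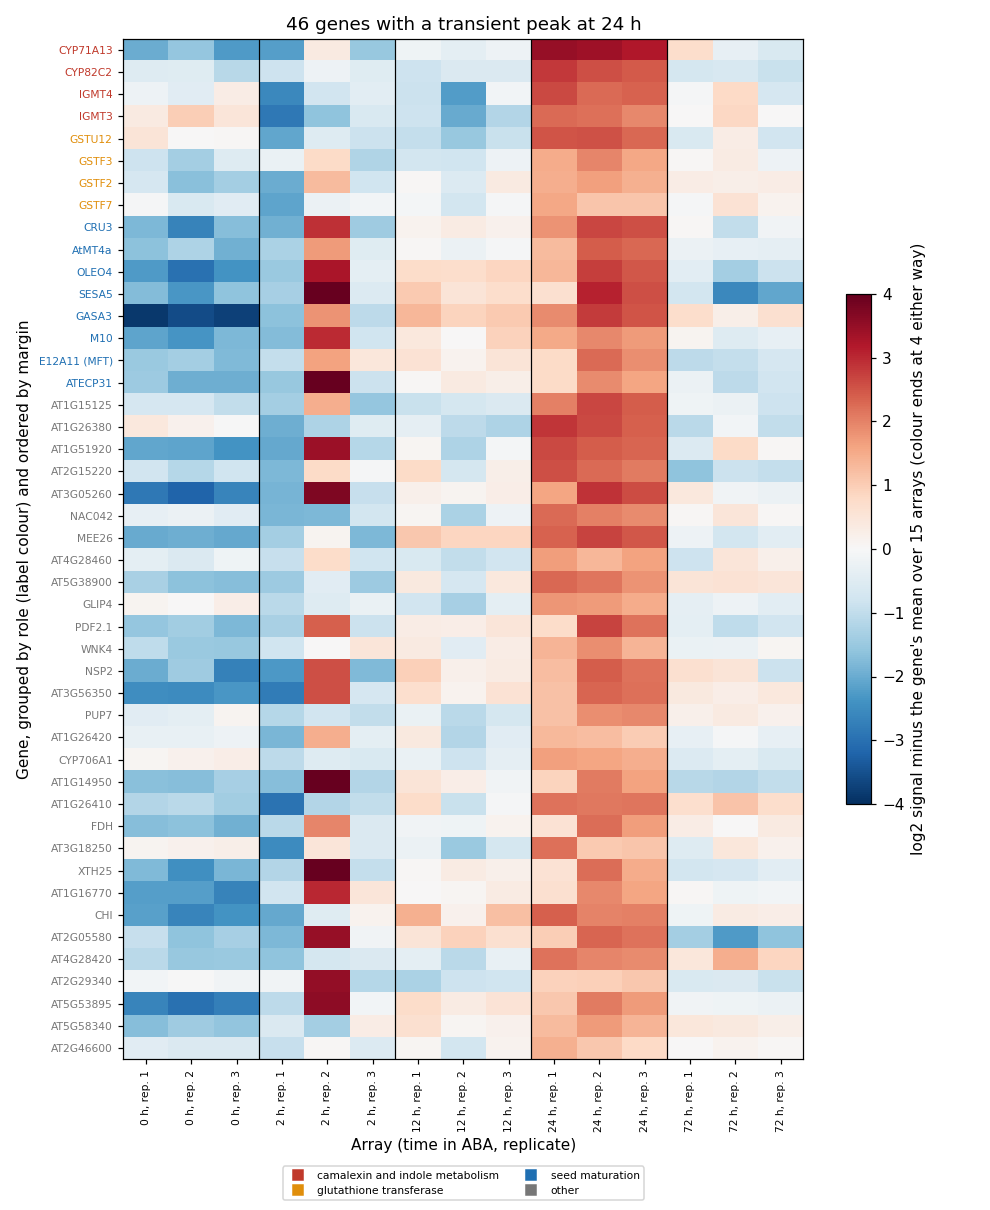
Heat map of the 46 members (rows) on the 15 arrays (columns, in order of time), as log2 signal minus each gene's mean over all arrays, with gene labels coloured by role. The 24 h arrays are red in every row, and 2 h replicate 2 is red for many seed maturation members and pale or blue for the camalexin and indole members.

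The largest margin of all belonged to CYP71A13, the cytochrome P450 that dehydrates indole-3-acetaldoxime on the way to camalexin. It read 2.78, 3.21 and 2.49 at 0 h, 2.56, 5.12 and 3.23 at 2 h, 4.59, 4.37 and 4.56 at 12 h, 8.24, 8.14 and 7.94 at 24 h, and 5.47, 4.42 and 4.15 at 72 h (replicates 1, 2 and 3). The 24 h arrays lay 2.48 or more above every other array. The next margin was that of CYP82C2, a P450 of a side branch that makes cyanogenic indole compounds. At 24 h it read 6.57, 6.33 and 6.19, and at the other times every array lay between 2.64 and 3.53. CYP82C2 was thus dim at each other time, on 2 h replicate 2 as well.

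IGMT3 and IGMT4, which the gene table names as indole glucosinolate O-methyltransferases, stood lower at 2 and 12 h than at 0 h in their means. IGMT3 read 7.20, 7.81 and 7.30 at 0 h, 3.95, 5.22 and 6.21 at 2 h, 6.01, 4.82 and 5.64 at 12 h, 9.09, 9.04 and 8.75 at 24 h, and 6.84, 7.67 and 6.84 at 72 h. IGMT4 averaged 5.48 ± 0.38, 4.35 ± 1.17, 4.53 ± 1.07, 8.02 ± 0.19 and 5.63 ± 0.74 at 0, 2, 12, 24 and 72 h (SD, n = 3). In both genes the 24 h arrays lay closer together than the arrays of 2 or 12 h. They are neighbours on chromosome 1, with only IGMT2 between them. IGMT2 and IGMT1 were also highest at 24 h, with margins of 0.68 and 1.31, and IGMT1 missed only the minimum level. IGMT5, elsewhere on the same chromosome, was highest at 0 h. Closely related genes such as these, CYP71A12 and CYP71A13, GSTF6 and GSTF7 or GSTF2 and GSTF3 may share hybridisation, which was not tested since probe sequences were not used here.

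NAC042, also called JUNGBRUNNEN 1, encodes a transcription factor known for its part in the control of camalexin synthesis and in stress tolerance. It read 7.08, 7.17 and 6.93 at 0 h, 5.58, 5.60 and 6.65 at 2 h, 7.46, 6.13 and 7.20 at 12 h, 9.66, 9.42 and 9.29 at 24 h, and 7.44, 7.88 and 7.43 at 72 h. Like the methyltransferases it was low at 2 h and high at 24 h.

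The list for camalexin and indole glucosinolate synthesis held 14 genes, of which CYP71A13 was the only member, and 8 of the 14 (57.1%) were highest at 24 h, beside 4818 of all 27981 loci (17.2%). The median margin of the list was 0.29, beside -0.21 for all loci. PAD3, the P450 of the last step to camalexin, was not a member. It read 6.09, 5.44 and 6.11 at 24 h, and 2.02 to 3.45 on all 12 other arrays. With a 24 h mean of 5.88 it lay just under the minimum level.

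The paralog CYP71A12, with a margin of 1.37, and the glutathione transferase GSTU4, with 1.35, also had the margin but not the level. MYB122, GSTF6, MYB51 and WRKY33, of which the MYBs and WRKY33 are transcription factors of these pathways, were highest at 24 h by 0.91, 0.77, 0.44 and 0.14. WRKY33 averaged 8.66, 6.48, 6.45, 8.80 and 7.77 at 0, 2, 12, 24 and 72 h, and MYB51 averaged 6.78, 4.98, 4.56, 7.22 and 5.03. Both therefore stood as high at 0 h as at 24 h to within 0.44. The other 6 listed genes were highest at another time. CYP79B2 and CYP79B3, which make the aldoxime, and CYP83B1, which leads it to glucosinolates, were highest at 12 h, CYP81F2 and GGP1 at 0 h, and MYB34 at 72 h.

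**Figure D2:**
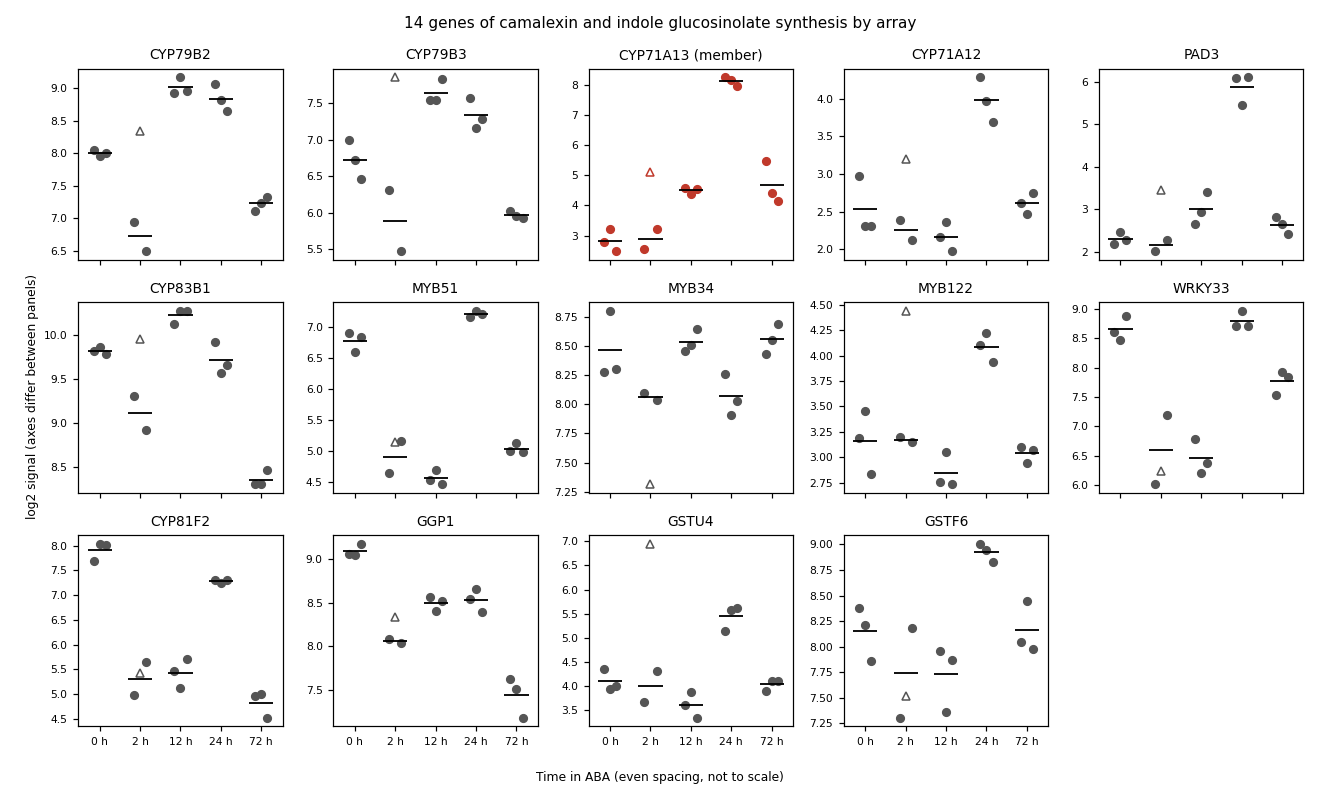
Signal of the 14 listed genes of camalexin and indole glucosinolate synthesis on each array (points; open triangle, 2 h replicate 2; bar, mean of the arrays at that time, at 2 h of replicates 1 and 3), with separate log2 axes. CYP71A13, CYP71A12 and PAD3 stand out at 24 h, while CYP79B2, CYP79B3 and CYP83B1 are highest at 12 h.

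Among the 4 glutathione transferases GSTU12, of the tau class, had the largest margin, 2.27. It read 6.29, 5.77 and 5.80 at 0 h, 3.67, 5.24 and 4.91 at 2 h, 4.80, 4.26 and 4.86 at 12 h, 8.28, 8.31 and 8.08 at 24 h, and at 72 h replicate 2 was the highest with 6.05. The 3 members of the phi class were nearer to the threshold. GSTF3 averaged 4.05 ± 0.42, 4.73 ± 0.99, 4.38 ± 0.34, 6.62 ± 0.26 and 5.02 ± 0.26 at 0, 2, 12, 24 and 72 h (SD, n = 3). GSTF2 and GSTF7 averaged 8.60 ± 0.11 and 9.62 ± 0.24 at 24 h (SD, n = 3), with margins of 1.23 and 1.03, and each had 72 h as its next highest time. Of the 12 phi genes measured 6 were highest at 24 h, and of the 27 tau genes 7 were. GSTU11, next to GSTU12 on chromosome 1, was highest at 24 h by 1.16 but below the minimum level. GSTF6, next to GSTF7, averaged 8.93 at 24 h, against 8.15 to 8.16 at 0 and 72 h.

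The 8 seed maturation members were CRU3, AtMT4a, OLEO4, SESA5, GASA3, M10, E12A11 and ATECP31. All 8 had means that were higher at each step to 24 h when 2 h replicate 2 was left out. CRU3, a cruciferin (12S storage globulin), read 7.13, 6.24 and 7.21 at 0 h, 6.99, 11.83 and 7.51 at 2 h, 9.05, 9.25 and 9.10 at 12 h, 10.72, 11.61 and 11.49 at 24 h, and 8.96, 7.95 and 8.79 at 72 h. It was bright at all times, and the single array at 2 h was its brightest of all.

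SESA5, a 2S storage albumin, read 5.23, 4.64 and 5.37 at 0 h, 5.64, 11.37 and 6.42 at 2 h, 8.01, 7.47 and 7.67 at 12 h, 7.61, 10.03 and 9.54 at 24 h, and 6.22, 4.38 and 4.90 at 72 h. Its 24 h replicates spread widely, with an SD of 1.28. OLEO4, an oleosin of the oil body surface, averaged 4.13 ± 0.40 at 0 h, 7.45 ± 0.09 at 12 h, 8.88 ± 0.76 at 24 h and 5.79 ± 0.47 at 72 h (SD, n = 3), and read 5.19, 9.95 and 6.28 at 2 h. GASA3, which encodes a small cysteine-rich peptide of the GAST1-like family, averaged 3.37 ± 0.14, 6.81 ± 1.84, 8.19 ± 0.22, 9.51 ± 0.46 and 7.63 ± 0.25 at 0, 2, 12, 24 and 72 h (SD, n = 3). At 72 h all arrays of GASA3 and of OLEO4 were above all their 0 h arrays, while those of SESA5 overlapped with 0 h.

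AtMT4a, a metallothionein, had a margin of 2.07 and averaged 7.10 ± 0.63 at 24 h (SD, n = 3). E12A11, better known as MOTHER OF FT AND TFL1, regulates germination under ABA, and it averaged 3.78, 5.09, 5.75, 6.96 and 4.44 at 0, 2, 12, 24 and 72 h with replicate 2 left out at 2 h, where it read 6.95. ATECP31, a late embryogenesis abundant protein, averaged 6.59 ± 0.58 at 24 h and M10, of the same broad group, 8.93 ± 0.21 (SD, n = 3). The families of these genes differed in how many of their other genes were highest at 24 h. All 3 cruciferin genes and 3 of 4 oleosin genes were highest at 24 h, though by 0.12 to 0.83 in those that were not members. Of the 5 SESA genes only SESA1 and SESA5 were highest at 24 h, and of the 6 GASA genes only GASA2 and GASA3, which lie next to each other on chromosome 4.

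The list for the ABA response and seed maturation held 9 genes, and none of them was a member. Of the 9, 4 (44.4%) were highest at 24 h, beside 17.2% of all loci. The median margin of the list was -0.0015, beside -0.21 for all loci. The values of EM1, RAB18 and RD29B are given as examples. EM1 averaged 4.02, 10.35, 10.33, 10.71 and 10.45 at 0, 2, 12, 24 and 72 h, RAB18 averaged 6.24, 10.75, 11.18, 11.52 and 11.54, and RD29B averaged 3.08, 10.24, 10.22, 10.47 and 10.41. They were high from 2 h on and their 24 h means differed from their 72 h means by 0.25, -0.02 and 0.06. In the 8 seed maturation members, which are not in this list, the 24 h mean was 1.88 to 3.89 above the 72 h mean. The rule required at least 1 there, and of members only. Members and listed genes are therefore not on equal terms, and no test was made.

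**Figure D3:**
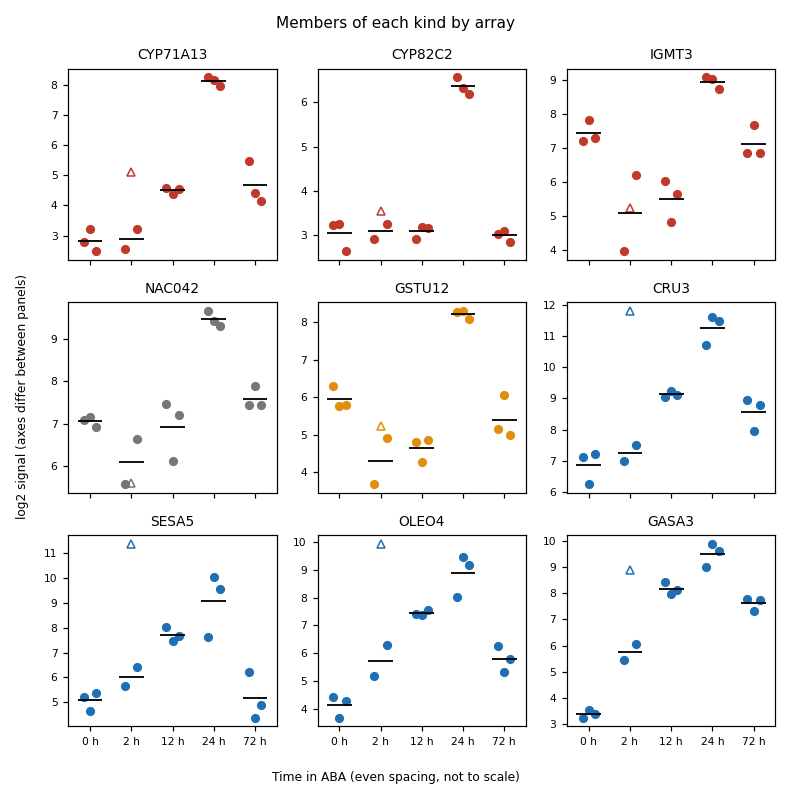
Signal of 9 members on each array (points; open triangle, 2 h replicate 2; bar, mean of the arrays at that time, at 2 h of replicates 1 and 3), with red for camalexin and indole metabolism, orange for a glutathione transferase, blue for seed maturation and grey for NAC042. The triangle lies above or near the 24 h arrays in CRU3, SESA5, OLEO4 and GASA3, and far below them in CYP71A13, CYP82C2, IGMT3, NAC042 and GSTU12.

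On 2 h replicate 2, the array left out of the choice, the members were spread widely. Relative to the 3 arrays at 24 h this array was higher than all of them for 16 members, among them for 4 and lower than all of them for 26. Over all loci it was higher than all 3 for 53.1% and lower than all 3 for 35.4%. Among the 11300 loci that, like the members, had a 24 h mean of at least 6, the shares were 26.3% and 60.5%, and those of the members, 34.8% and 56.5%, lay near these. Of the 8 seed maturation members 5 were above all 24 h arrays and 1 below all. All 4 camalexin and indole members and all 4 glutathione transferases were below all 24 h arrays. ATECP31 averaged 6.59 at 24 h and read 10.15 on that array, against 3.65 and 4.33 on the other 2 h arrays. AT1G14950, of no annotated role, averaged 6.32 at 24 h and read 10.50 on that array, against 3.08 and 3.63 on its mates.

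The array was at least 2 above the mean of its mates for 24 of the 46 members (52.2%), beside 491 of all loci (1.75%). In the members, but not in all loci, the rule held the mean of these mates at least 1 below the 24 h mean. The shares are therefore not on equal terms. With all 3 arrays in the 2 h mean, 40 members still met the rule. The 6 that did not were AT1G14950, XTH25, AT1G16770, ATECP31, AT2G29340 and AT5G53895. For these 6 the margin of at least 1 rests on leaving the array out, though the 24 h mean was still the highest with it included. All members of camalexin and indole metabolism, all glutathione transferases and 7 of 8 seed maturation members met the rule either way.

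**Figure D4:**
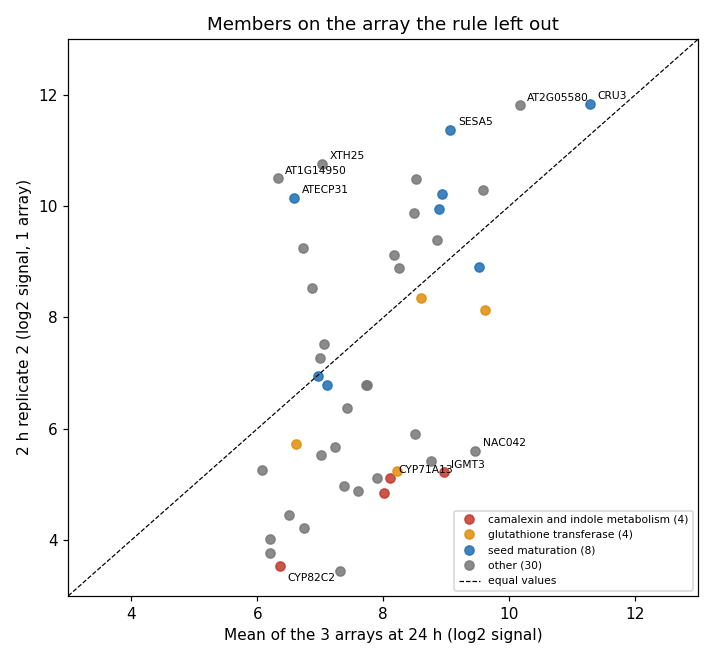
Mean log2 signal of each member at 24 h (horizontal axis) and its log2 signal on 2 h replicate 2 (vertical axis), coloured by role, with the broken line at equal values. Seed maturation members lie near or above the line, with ATECP31 at 6.59 and 10.15, and the camalexin and indole members lie well below it, with NAC042 at 9.46 and 5.60 beside them.

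As to the order of the 3 arrays at 24 h, for all 8 seed maturation members replicate 1 was the lowest and replicate 2 the highest, while for all 4 camalexin and indole members replicate 1 was the highest. Over all loci replicate 1 was the lowest of the 3 for 34.6% and the highest for 41.2%. Without 24 h replicate 1 the rule found 53 genes, and without replicate 2 it found 38. At 12 h replicate 2 was the lowest for 35 of the 46 members (76.1%), beside 30.0% of all loci, and at 2 h replicate 1 was below replicate 3 for 41 (89.1%), beside 44.1%. Among the 11300 loci with a 24 h mean of at least 6 these shares were 34.2% and 53.0%. As to the makeup of the seeds, the 6 listed genes of endosperm and seed coat had a mean signal of 5.18 to 5.33 on the 0 h arrays, 5.50 to 6.36 at 2 h, 5.87 to 6.04 at 12 h, 5.70 to 5.84 at 24 h and 5.37 to 5.51 at 72 h. The bright ones among them were EPR1, which averaged 9.32, 10.15, 10.40, 10.09 and 8.75 at 0, 2, 12, 24 and 72 h, MAN7, which averaged 5.92, 8.95, 9.64, 9.17 and 8.62, and MUM2, which averaged 7.15, 6.37, 6.75, 6.03 and 6.24. BAN, TT12 and PER36 were dim, with 2.89, 3.22 and 3.09 at 24 h. None of the 8 lists of tissue markers held a member. The part of the array order and of tissue makeup in these courses was not tested.

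Before the peak, the members fell into courses that the rule did not set. In 26 the means were higher at each step to 24 h, and in 12 the means at 2 and 12 h were both below 0 h, with replicate 2 left out of the 2 h mean. Rises at both early steps were found in 6778 of all loci (24.2%) and means below 0 h at both 2 and 12 h in 10584 (37.8%). The 12 with means below 0 h were AT1G26380, IGMT4, GSTU12, NAC042, AT4G28460, GLIP4, IGMT3, PUP7, AT1G26420, CYP706A1, AT3G18250 and AT2G29340. Some of these differences were small. At 12 h NAC042 differed from 0 h by -0.13 (limma adjusted p = 0.859) and AT1G26420 by -0.16 (limma adjusted p = 0.911). Only 5 members were called lower at 12 h, all of them among the 12. Their median mean was 5.52, 4.21, 4.59, 7.15 and 5.23 at 0, 2, 12, 24 and 72 h. The 26 with stepwise higher means had medians of 3.89, 5.22, 5.79 and 5.79 at 0, 2, 12 and 72 h, and included CYP71A13, GSTF3 and all 8 seed maturation members. On 2 h replicate 2, 10 of the 12 were below all 24 h arrays, and 13 of the 26 were above all of them.

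Differences of 2, 12 and 72 h from 0 h were tested with limma over all loci and called at an adjusted p under 0.05. The rule does not set these times against each other, but their arrays did enter it. All 3 comparisons share the 0 h arrays. The median SD of the members was 1.42 at 2 h with all 3 arrays and 0.23, 0.32, 0.26 and 0.26 at 0, 12, 24 and 72 h, so the counts without 2 h replicate 2 are given too.

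At 2 h 10 of the 46 members (21.7%) were higher than at 0 h and 6 (13%) lower, beside 6.95% and 8.89% of all loci. Without 2 h replicate 2 the counts were 9 and 8 of the 46, beside 2421 and 2932 of all 27981 loci (8.65% and 10.5%). Without 2 h replicate 1, 29 members were called in all, and without 0 h replicate 1, 2 or 3 there were 8, 9 and 8. No share of all loci was taken for these settings. The median difference of the members was 0.92, beside 0.11 for all loci, and without 2 h replicate 2 it was 0.15, beside 0.01. The 6 that were lower were IGMT3, GSTU12, NAC042, GLIP4, CYP706A1 and AT1G26380. IGMT3 differed by -2.31 ± 0.45 (SE, limma adjusted p = 0.00276) and NAC042 by -1.12 ± 0.32 (adjusted p = 0.0305). NAC042 missed the threshold once 2 h replicate 2 was left out (limma adjusted p = 0.0662) and with array quality weights, and GLIP4 missed it with centring (limma adjusted p = 0.0994) and with array quality weights. Among those higher were GASA3 at 3.44 ± 0.61 (limma adjusted p = 0.00128), OLEO4 and E12A11. With all arrays GASA3 was called at all 3 times, and OLEO4 and E12A11 at 2 and 12 h.

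At 12 h 15 members (32.6%) were higher than at 0 h and 5 (10.9%) lower, beside 13.3% and 11.7% of all loci. Without 2 h replicate 2 the counts were 28 and 6, beside 20.7% and 19.9% of all loci. Without 0 h replicate 1 or 3, 13 members were called in all, with no share of all loci taken. The median difference of the members was 1.55, beside -0.04 for all loci. The largest difference was that of GASA3, at 4.82 ± 0.61 (limma adjusted p = 4.79e-05), and 4 of the 8 seed maturation members were called, OLEO4, M10 and E12A11 beside it. All 8 were called higher without 2 h replicate 2. MEE26, a gene named for the embryo arrest of its mutant, was higher by 2.94 ± 0.34 (limma adjusted p = 2.35e-05). The 5 that were lower were IGMT3, GSTU12, AT1G26380, GLIP4 and CYP706A1, and all of these remained called without 2 h replicate 2. AT1G26380 was not called after repeated quantile normalization (limma adjusted p = 0.0725). IGMT3 differed by -1.95 ± 0.45 (limma adjusted p = 0.00548) and GSTU12 by -1.32 ± 0.36 (adjusted p = 0.014). GLIP4, a lipase of the GDSL family, differed by -0.95 ± 0.23 (limma adjusted p = 0.00712).

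At 72 h, 15 of the 46 members (32.6%) were higher than at 0 h and 2 (4.35%) were lower, beside 18.4% of all loci higher and 20.2% lower. The median difference of the members was 1.04, beside -0.02 for all loci. Without 2 h replicate 2, 25 of the 46 members were higher and 3 of the 46 lower, beside 6880 and 7438 of all 27981 loci (24.6% and 26.6%). The 72 h mean was at least 1.03 below the 24 h mean in every member, as the rule requires. In 36 of the 46 it was above the 0 h mean, and no share of all loci was taken for this count. GASA3 was higher by 4.26 ± 0.61 (SE, limma adjusted p = 7.13e-05), AT5G38900 by 2.08 ± 0.30 (adjusted p = 7.48e-05), CHI by 2.55 ± 0.44 (adjusted p = 0.000354) and CYP71A13 by 1.85 ± 0.49 (adjusted p = 0.0078), with 3 of 3 arrays above all 0 h arrays in each. CHI is a gene for a putative chitinase, a class of enzyme that cuts the chitin of fungal walls. Lower were CYP706A1, with a difference of -0.68 ± 0.18 (limma adjusted p = 0.00653), and AT1G26380, with -0.91 ± 0.34 (adjusted p = 0.0496). AT1G26380 was not called after centring (limma adjusted p = 0.0603) or repeated quantile normalization (limma adjusted p = 0.115). Of the seed maturation members only GASA3 was called at 72 h with all arrays, and 6 were called higher without 2 h replicate 2, namely CRU3, AtMT4a, OLEO4, GASA3, M10 and ATECP31. CRU3 differed by 1.71 ± 0.88 (limma adjusted p = 0.153), and by the same 1.71 with an adjusted p of 0.000202 once 2 h replicate 2 was left out.

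**Figure D5:**
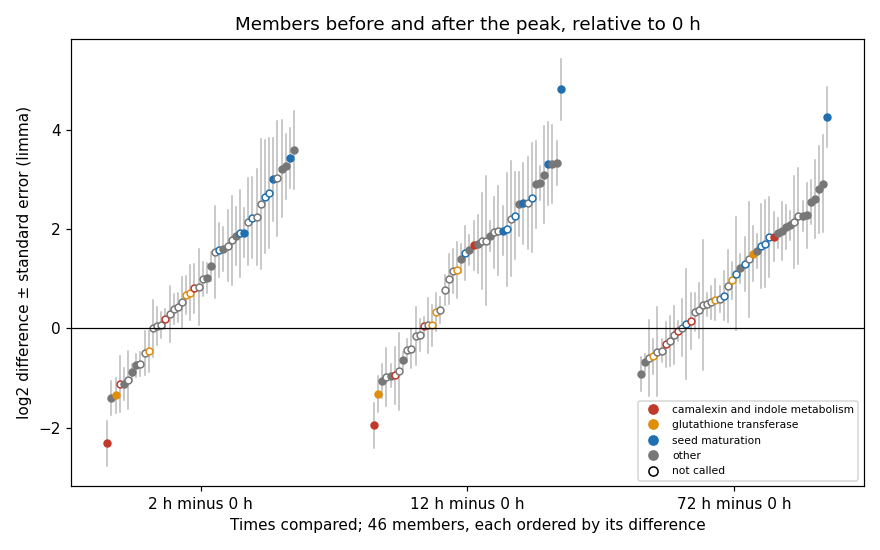
limma differences (log2, ± standard error) of 2, 12 and 72 h from 0 h for the 46 members, ordered by size within each time, coloured by role, with filled points called at an adjusted p under 0.05. Most members lie above 0 at 72 h, GASA3 is the highest point at 12 and 72 h, and IGMT3 is the lowest at 2 and 12 h.

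Further members had names but no role shared with others. PDF2.1 (a defensin-like peptide) averaged 5.39, 5.90, 7.33, 8.85 and 6.25 at 0, 2, 12, 24 and 72 h with replicate 2 left out at 2 h, where it read 9.38. NSP2, a nitrile specifier protein that turns glucosinolate breakdown toward nitriles, averaged 4.26, 4.26, 6.80, 8.25 and 6.41 in the same way and read 8.88 on 2 h replicate 2. Of the 5 NSP genes NSP2 alone was highest at 24 h. WNK4, a kinase, read 6.86, 7.35 and 6.85 at 24 h, where all other arrays were at or under 5.98. PUP7, of the purine permease family, read 5.73, 6.42 and 6.46 at 24 h, against 3.41 to 4.90 elsewhere. FDH (formate dehydrogenase) and XTH25 (a xyloglucan endotransglucosylase of the cell wall) averaged 7.06 ± 0.83 and 7.02 ± 0.83 at 24 h (SD, n = 3), and XTH25 read 10.76 on 2 h replicate 2.

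Several of the strongest members were known by locus alone in the gene table, and their roles were not looked at further here. AT1G15125 had the third margin, 2.79, with 7.37, 8.03 and 7.78 at 24 h and 3.81 to 6.79 on the other arrays. AT1G26380 (margin 2.43) read 7.54, 7.32 and 7.07 at 24 h, against 5.10, 4.86 and 4.67 at 0 h. AT1G51920 (2.38), AT2G15220 (2.21) and AT3G05260 (2.16) followed. AT1G51920 read 9.13 and AT3G05260 9.87 on 2 h replicate 2, above all their 24 h arrays, and AT2G15220 read 5.67, below them. AT4G28460, AT5G38900 and AT3G56350 had margins of 1.58, 1.54 and 1.42.

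Some members lay close together on the chromosomes. AT1G26410 and AT1G26420 are adjacent, with 2 genes between them and AT1G26380, and the other genes of that stretch were highest at 24 h by 0.27 at most. AT1G26410 averaged 8.75 ± 0.03 at 24 h (SD, n = 3), the closest replicates of any member. AT5G58340 and WNK4 are adjacent as well, and AT4G28420, AT4G28460 and CRU3 lie within one stretch with 3 and 6 genes between them. Chromosome 2 held 13 of the 46 members (28.3%), beside 4403 of all 27981 loci. For 8 members the arrays held further probe sets, 12 in all, and each of these was highest at 24 h too, with margins from 0.67 to 2.19. These probe sets were read on the same arrays, and 3 of CRU3 had identical values.

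The threshold cut through a continuous range. The 3 members just inside the margin were GSTF7 (1.03), AT2G46600 (1.05) and AT5G58340 (1.07), and the 3 loci just outside it were AT1G28190 (0.91), CYP71B6 (0.91) and AT5G59170 (0.89). A further 23 loci had the margin but a 24 h mean under 6, of which PAD3 (5.88), CYP71B22 (5.68) and AT1G06137 (5.49) came nearest. Apart from the list for camalexin and indole glucosinolates, none of the other 34 lists held a member. In the lists for phenylpropanoid and lignin synthesis 6 of 13 genes were highest at 24 h, by 0.88 at most (4CL1). In those for hypoxia (14 genes), cell division (22), the clock (12) and root hairs (11) no gene was highest at 24 h.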

How the data were processed

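Expression was measured on 15 one-colour Affymetrix arrays, 3 for each of 5 times, from 50 ng of total RNA per sample. The deposited values are log2 signals, made by the authors with RMA per the submitters' processing notes. RMA draws the distributions of the arrays toward each other, so values are relative within an array. Those of 2 h replicate 2 still had a narrower interquartile range, 2.89, than those of the other arrays, 3.73 to 4.12. The RMA version, array design, probe set definition and build are not stated in the sources used here. The number of arrays limits the precision.

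For each of 27981 loci the probe set with the highest mean was kept from 35986. Symbols came from a RefSeq gene table (TAIR10.1), which held 27241 of the loci, and promoter and protein sequences were not used here. Tests used limma 3.58.1 in R 4.3.3, with all 15 arrays fitted together and a mean for each time, two-sided, with Benjamini-Hochberg adjustment over all loci. The script was tested on simulated data. Same-numbered arrays of different times deviated together at correlations of -0.17 to 0.27, 11 of 30 pairs over 0.1. Arrays with different numbers were not compared in this way, so whether numbers pair samples was not tested. The main fit took them as unpaired, and a replicate term was an alternative.

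The members, the 35 gene lists and the tests were chosen with earlier results of these data known. The lists were xylem and secondary wall, Casparian strip and suberin, phloem, cuticle and wax, root hair, stomatal lineage, meristem, endosperm and seed coat, and 27 of metabolism, hormones and stress. Genes named were the 24 members with the largest margin, the 3 just inside and just outside, members in lists, and others chosen after their values were seen. Alternatives were a replicate term, repeated quantile normalization, centring, a filter on the 25% dimmest loci, an intensity trend, array weights, other thresholds, all probe sets averaged, and leaving out each array.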

Additional observations from a re-analysis of the deposited data

How the results depend on the processing

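The 46 members became 19 with a margin of at least 1.5, 21 with a 24 h mean of at least 8, and 18 when every 24 h array had to exceed every other array by at least 1. Leaving out single arrays gave 38 to 53 members. Of the genes called against 0 h there were 16 at 2 h, 20 at 12 h and 17 at 72 h. Array quality weights called 37 at 12 h and 32 at 72 h. Leaving out single arrays gave 8 to 29 at 2 h, 13 to 34 at 12 h and 12 to 28 at 72 h. Without 2 h replicate 2, 34 were called at 12 h and 28 at 72 h. The share of all loci called rose as well. At 12 h it went from 13.3% to 20.7% higher and from 11.7% to 19.9% lower. At 72 h it went from 18.4% to 24.6% higher and from 20.2% to 26.6% lower. For the other settings no share of all loci was taken, so those counts only show how the calls depend on the setting. Without 2 h replicate 1, 29 were called at 2 h. Without 0 h replicate 1, 2 or 3 there were 8, 9 and 8 calls at 2 h, and without 0 h replicate 1 or 3 there were 13 at 12 h. The cause was not tested. With a replicate block 17, 21 and 15 members were called at 2, 12 and 72 h. The block ended the calls of AT1G26380 at 12 and 72 h (adjusted p = 0.0532 and 0.0693, limma) and of GSTF2 at 72 h (adjusted p = 0.0628, limma). Repeated quantile normalization, centring, the filter on dim loci and the intensity trend kept each count within 1.5 times. Centring moved the median difference of all loci at 2 h from 0.11 to 0.22. A time that loses an array keeps 2, and the fit lends it the spread of the other times. RMA signals near the lower end carry no detection call, which limits what dim values can show.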

Other observations

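A few of the 23 loci that had the margin at 24 h but not the minimum level are given here, picked after their values were seen. PROPEP3, the precursor of a peptide that signals damage, averaged 4.82 ± 0.65 at 24 h and 2.82 to 3.63 at the other times (2 h without replicate 2), and GLIP1, a secreted lipase of defence, averaged 4.21 ± 0.19 (SD, n = 3). CYP71A18, of the family of CYP71A13, averaged 4.43 ± 0.48. GASA2, the neighbour of GASA3, read 2.96, 5.99 and 4.41 at 24 h, so that 1 of its 3 arrays stood at its 12 h level. DIN2, a beta-glucosidase gene named for its rise in darkness, read 5.03, 5.92 and 5.45 at 24 h and 6.79 on 2 h replicate 2.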
